A study of Mus musculus with 6 samples.

Results

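The 35 genes described here move zinc and iron into, out of and within cells, or hold these metals once inside. They were taken from a table of 35434 gene symbols by their symbols: the 14 genes of the Slc39a family, the 10 genes of the Slc30a family, and 11 single genes. The single genes are the metallothioneins Mt1 and Mt2, the iron and heme genes Tfrc, Slc11a1, Slc11a2, Steap4, Hmox1, Heph and Slc40a1, and the ferritin chains Fth1 and Ftl1. All 35 were found in the table.

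RNA came from the large intestine of mice with inflammatory bowel disease (IBD) that had received regulatory T cells, either control cells (Ctrl-Tregs) or cells named Lenv-Tregs, which the series title describes as treated with lenvatinib, an inhibitor of receptor tyrosine kinases. The labels name 3 libraries int 3-1, int 3-2 and int 3-3 and 3 libraries int 2-1, int 2-2 and int 2-3. They do not say which of int 3 and int 2 received which cells, and they give no strain, sex, age, disease model or time. Every difference below is therefore int 3 minus int 2, with no treatment assigned to either, and since separate animals are not stated, p-values below reflect library-to-library spread alone, which may be technical.

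ZIP proteins, encoded by the Slc39a genes, bring zinc into the cytosol from outside the cell or from organelles, and ZnT proteins, encoded by the Slc30a genes, carry it the opposite way. Metallothioneins are small cysteine-rich proteins that bind zinc and copper in the cytosol, and the zinc sensor MTF-1 switches their genes on through short metal response elements in the promoter. Iron bound to transferrin enters through the transferrin receptor (Tfrc), iron in the gut lumen through DMT1 (Slc11a2). Surplus iron is stored in ferritin (Fth1, Ftl1) and leaves through ferroportin (Slc40a1). Iron regulatory proteins tie these steps together by binding a hairpin in the mRNA: bound in a 5′ UTR they hold back translation, and bound in the 3′ UTR of Tfrc they protect the mRNA from decay.

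The hairpins are shown because they divide the iron genes with a match into those whose mRNA level this control is known to set and those whose translation it is known to set. Iron genes without a match are not placed by this search. The search asked for a C, 5 bases, the 6-base loop CAGTGN with any base but G at its end, and 5 bases that pair with the first 5 (G with T allowed). In the GENCODE M21 transcripts (GRCm38) it found such a hairpin for 332 of 55341 gene names, 0.6%, and for 4 of the 35 genes here. The match in Fth1 lies in the 5′ UTR at chr19:9982732-9982760 on the plus strand, that of Ftl1 in the 5′ UTR at chr7:45459779-45459807 on the minus strand, and that of Slc40a1 in the 5′ UTR at chr1:45925465-45925493 on the minus strand. Tfrc holds 4, all in its 3′ UTR on the plus strand, at chr16:32631219-32631247, chr16:32631598-32631626, chr16:32631663-32631691 and chr16:32631710-32631738. Each is printed 5′ to 3′ as DNA with 6 bases on either side of the match, and the capitals mark the loop.
Fth1: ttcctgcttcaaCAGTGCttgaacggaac
Ftl1: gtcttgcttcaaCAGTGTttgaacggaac
Slc40a1: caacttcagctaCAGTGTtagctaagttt
Tfrc hairpin 1: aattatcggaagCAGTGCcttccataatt
Tfrc hairpin 2: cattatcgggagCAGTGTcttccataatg
Tfrc hairpin 3: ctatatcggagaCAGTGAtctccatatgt
Tfrc hairpin 4: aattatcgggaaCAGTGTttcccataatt
The stem and loop of the ferritin genes are alike but for the last base of the loop. Where no match was found, that says only that these letters are not there.

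The promoters of Mt1 and Mt2 are shown because these neighbouring genes changed unequally. The core letters of the metal response element, TGCACNC and TGCGCNC, were sought on both strands in RefSeq windows (GRCm38.p6) of 250 bases before and 50 after each start site, and overlapping matches were counted separately. Of 32851 windows 25.7% held at least 1 match. Windows were at hand for 27 of the 35 genes, and 15 of their 34 windows held a match (44.1%). Mt2 had 4 matches, a number reached by 0.517% of all windows, and Mt1 had 3, reached by 1.97%. Slc30a10 and Slc30a4 also had 3, of which 2 overlap in Slc30a10, Slc30a1 and Slc30a2 had 2, and Tfrc had 2 that overlap. The 250 bases before the start site are printed 5′ to 3′ with the matches in capitals, for Mt2 at chr8:94172368-94172617 and for Mt1 at chr8:94178839-94179088, both on the plus strand. The other match of Mt2 and the other 2 of Mt1 lie after the start site and are not printed. The counts depend on the RefSeq start site: other start sites of Mt1 and Mt2, and elements outside these windows, were not examined. The part of these letters in the unequal change was not tested.
Mt2: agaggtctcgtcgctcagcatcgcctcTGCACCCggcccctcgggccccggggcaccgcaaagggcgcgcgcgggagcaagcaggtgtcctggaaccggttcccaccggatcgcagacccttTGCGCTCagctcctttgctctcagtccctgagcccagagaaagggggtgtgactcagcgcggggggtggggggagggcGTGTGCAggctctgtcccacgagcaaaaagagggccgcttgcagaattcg
Mt1: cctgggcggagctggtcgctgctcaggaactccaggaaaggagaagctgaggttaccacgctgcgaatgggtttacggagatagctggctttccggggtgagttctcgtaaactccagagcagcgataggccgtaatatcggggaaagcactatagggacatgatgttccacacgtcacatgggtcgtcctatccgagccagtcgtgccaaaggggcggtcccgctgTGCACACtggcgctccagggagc

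The 6 libraries held 34.0 to 35.1 M fragments (M, 1e6; a fragment is 1 sequenced piece of RNA), recovered from the steps between the deposited FPKM values. FPKM counts fragments per kilobase of gene in every 1e6 of the library, so 1 fragment in a gene of 1 kilobase was worth 0.0285 to 0.0294 FPKM. A gene was tested when 3 or more libraries had it at FPKM 1 or above, using limma on log2(FPKM + 1). A log2 change is the difference of the group means on that scale, which understates changes of weakly expressed genes, and "rose" and "fell" are kept for genes with an adjusted p under 0.05. The int 3 libraries lay farther apart than the int 2 libraries: among the genes tested here the log2 difference between a pair of libraries had an SD of 0.193 to 0.397 in int 3 and of 0.0730 to 0.0924 in int 2. The homeobox gene Hoxb13, a marker of distal colon, was at 146 FPKM in int 3-1, 16.4 in int 3-2 and 267 in int 3-3, against 287 ± 1.60 FPKM in int 2 (SD, n = 3). Checked against the tissue label, absorptive colonocyte markers summed to 2130 to 3524 FPKM in int 3 and 2748 to 2782 FPKM in int 2. Of the 9 tested, 1 rose (Ms4a8a), 3 fell (Slc26a3, Aqp8 and Slc20a1) and 5 did not pass. Saa1 made up much of the spread of the sum, at 1324, 539 and 2087 FPKM in int 3 and 729 to 743 FPKM in int 2. Of 7 listed Paneth cell markers of the small intestine, the defensins Defa24, Defa30 and Defa17 were listed at 0 in all libraries. Ang4 was at 15.8, 31.9 and 1.56 FPKM in int 3 and at 81.6, 80.3 and 80.7 FPKM in int 2, and Lyz1 at 1.81 to 4.08 FPKM in int 3 and 21.2 to 22.9 FPKM in int 2. Mmp7, below the filter, went the other way in int 3-1 and int 3-2. It was at 2.47, 3.93 and 0.0512 FPKM in int 3 and 0.0785 to 0.208 FPKM in int 2. Of the 3 tested markers of this list 2 fell and 1 did not pass. Small intestine enterocyte markers, of which 0 of 4 tested passed in limma's test, summed to 109 to 199 FPKM in int 3, led by Fabp2 at 169 FPKM in int 3-2, and to 109 to 120 FPKM in int 2. Markers of other cells also differed, and their part in the results on the 35 genes was not tested. Over all tested genes, 8.64% rose and 6.7% fell. Of 8 tested B and plasma cell markers 7 fell (summed level 84.6 to 159 FPKM in int 3 and 456 to 472 FPKM in int 2), and of 6 T cell markers 3 fell (7.84 to 16.4 FPKM in int 3 and 25.4 to 27.2 FPKM in int 2). Fibroblast markers rose in 4 of 8 (513 to 589 FPKM in int 3 and 469.5 to 471 FPKM in int 2), and endothelial markers in 2 of 7 (132 to 227 FPKM in int 3 and 107 to 112 FPKM in int 2). Of 8 listed adipocyte and mesothelial markers 3 were tested and 2 rose. All 8 summed to 8.38 to 27.8 FPKM in int 3 and 2.65 to 3.78 FPKM in int 2. At such levels tested genes of this list may have passed the filter only through int 3, which would fix their direction.

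Of the 35 genes 29 could be tested. In int 3, 11 of them rose, 2 fell and 16 did not pass, while 15.3% of all 12525 tested genes changed (8.64% rose and 6.7% fell). Their median log2 change was 0.29, against 0.03 over all tested genes. The largest rises were those of Steap4 at 2.43, Tfrc at 1.32, Hmox1 at 1.21 and Mt2 at 1.01, and the larger of the falls was that of the manganese exporter gene Slc30a10, at -1.62. The groups did not overlap for 19 of the 29 genes, 15 with int 3 above and 4 with int 3 below. Groups were apart for 40.4% of all tested genes, with int 3 above in 22.4% and below in 17.9%. With the values rescaled to TPM, 12 of the 29 genes rose and 2 fell, and 67.7% of the changed genes of the whole table were higher, against 56.3% with the deposited FPKM. Leaving out int 3-3 raised the count of rises to 19, and leaving out int 3-1, int 2-1, int 2-2 or int 2-3 lowered it to 6. Over all genes these settings moved alike, with 39.2% called without int 3-3 and 4.91% to 5.13% in the others. The 6 genes not tested were Slc11a1, Slc30a2, Slc30a3, Slc30a8, Slc39a2 and Slc39a12. Slc30a10 passed the filter only through its int 2 values, so it had to be higher there.

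**Figure D1:**
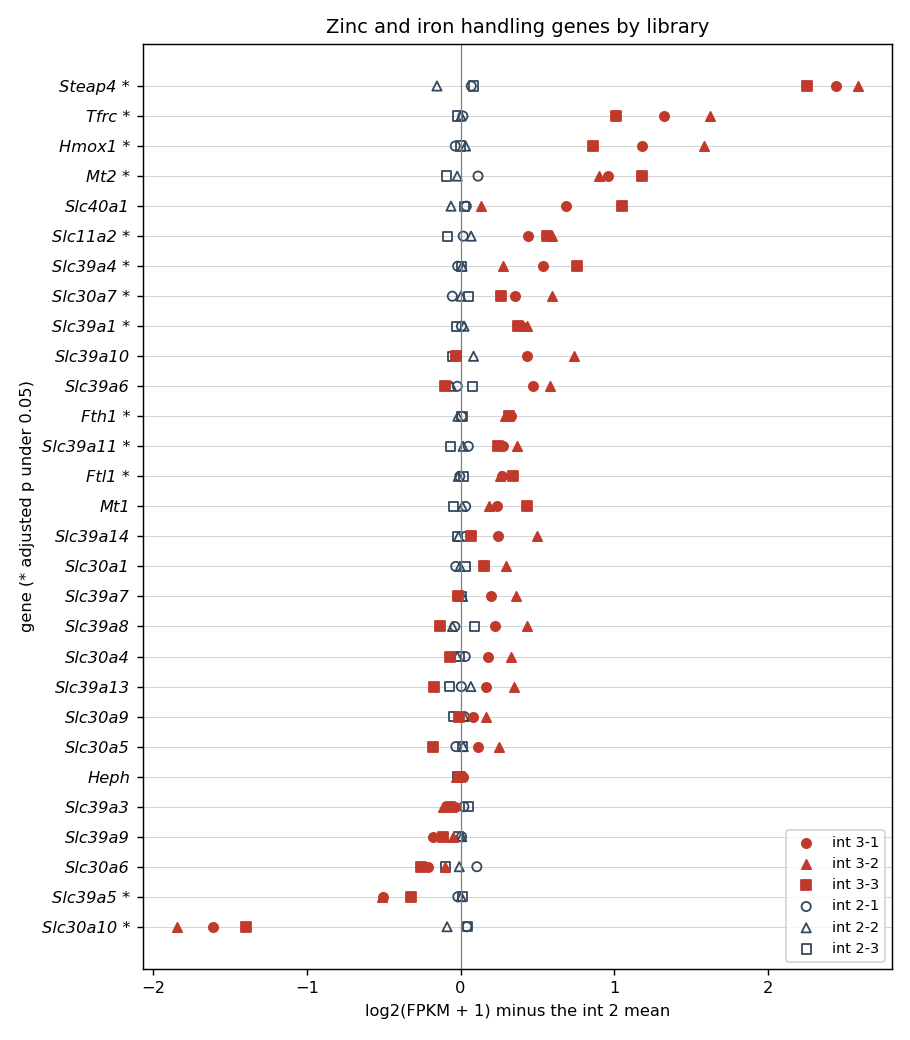
log2(FPKM + 1) of each tested gene in each library, minus the mean of the 3 int 2 libraries (vertical line at 0); filled red symbols are int 3 and open symbols int 2, and an asterisk marks an adjusted p under 0.05. Steap4, Tfrc, Hmox1 and Mt2 lie to the right in every int 3 library and Slc30a10 and Slc39a5 to the left, while the int 3 symbols of Slc40a1 are spread from 0.13 to 1.05.

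Of the genes that take iron into cells, Tfrc and Slc11a2 rose. Tfrc, the receptor for transferrin-bound iron, stood at 70.8 FPKM in int 3-1, 87.2 in int 3-2 and 56.7 in int 3-3, against 27.9, 27.7 and 27.3 FPKM in int 2-1, int 2-2 and int 2-3. All int 3 libraries were above all int 2 libraries, and int 3-2 was the highest. The mean was 2.59-fold higher (log2 change 1.32, SE 0.15, adjusted p = 0.00333), on 10233 to 15278 fragments per library in int 3 and 4795 to 4929 in int 2. Slc11a2, which carries ferrous iron across the brush border and out of endosomes, was at 5.61, 6.36 and 6.18 FPKM in int 3 and at 3.93, 4.11 and 3.59 FPKM in int 2. Its 6 values form a tight pair of groups that do not overlap (log2 change 0.53, SE 0.07, adjusted p = 0.00678).

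Steap4, a metalloreductase that reduces iron and copper before transport, had the largest relative rise of these genes. It was at 10.9 FPKM in int 3-1, 12.2 in int 3-2 and 9.48 in int 3-3, against 1.30, 0.971 and 1.32 FPKM in int 2-1, int 2-2 and int 2-3. Its mean was 9.07-fold higher in int 3 (log2 change 2.43, SE 0.11, adjusted p = 0.000179), resting on 1044 to 1303 fragments in int 3 and 105 to 142 in int 2. Its relatives Steap1, Steap2 and Steap3, named after their values were seen, did not pass (adjusted p = 0.488, 0.815 and 0.418). By mean level Steap4 was number 17 of the 35 genes in int 3 and number 28 in int 2.

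Hmox1, heme oxygenase 1, opens the heme ring and sets its iron free. It stood at 6.53, 8.95 and 5.03 FPKM in int 3 and at 2.24, 2.39 and 2.32 FPKM in int 2, again without overlap and with int 3-2 highest (log2 change 1.21, SE 0.18, adjusted p = 0.00804). The macrophage and red blood cell, both rich in heme handling, were followed by marker lists. Of 12 tested macrophage markers 8 rose, 1 fell (Lyz2) and 3 did not pass, while 8.64% of all tested genes rose and 6.7% fell. None of the 12 was at 0. Of the 8, Fcgr1 passed the filter only through int 3 and so had to be higher there. The summed level of the list, led by Lyz2, was 413 to 552 FPKM in int 3 and 490 to 492 FPKM in int 2. Of 4 tested red cell markers 0 passed in limma's test, and the sum over all 8 listed was 93.2 to 112 FPKM in int 3 and 79.4 to 90.7 FPKM in int 2. Their part in the rise of Hmox1 was not tested. In bulk tissue a change in the number of cells of a type and a change in RNA per cell cannot be told apart.

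Iron storage genes were the most abundant of the 35 by far, and both rose a little. Fth1, the ferritin heavy chain with ferroxidase activity, stood at 2251 FPKM in int 3-1, 2192 in int 3-2 and 2226 in int 3-3, against 1799, 1769 and 1802 FPKM in int 2-1, int 2-2 and int 2-3. Ftl1, the light chain that helps form the iron core, was at 1293, 1280 and 1361 FPKM in int 3 and at 1068, 1061 and 1087 FPKM in int 2. Neither chain overlapped between groups, and the int 3 libraries were close together for both. The log2 changes were 0.31 for Fth1 (SE 0.06, adjusted p = 0.0193) and 0.29 for Ftl1 (SE 0.06, adjusted p = 0.0222). Without int 3-1, int 2-1, int 2-2 or int 2-3, neither passed (adjusted p = 0.113, 0.112, 0.118 and 0.106 for Fth1, and 0.105, 0.123, 0.123 and 0.106 for Ftl1). They also did not pass with median-of-ratios scaling (0.101 and 0.118) or without a filter (0.152 and 0.0977).

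The chains kept their proportion. Fth1 over Ftl1 was 1.74, 1.71 and 1.64 in int 3-1, int 3-2 and int 3-3, and 1.68, 1.67 and 1.66 in int 2-1, int 2-2 and int 2-3, which overlap (p = 0.5, two-sided exact permutation test, whose smallest p here is 0.1). Tfrc amounted to 3.22% ± 0.720 of the Fth1 level in int 3 and to 1.54% ± 0.0276 in int 2 (SD, n = 3 each). This is given as a description, since the larger rise of Tfrc was already seen. Ferritin genes have many processed pseudogenes, and how shared reads were counted is not given in the sources used here; Ftl1-ps2 was at 0, 0.0314 and 0.0304 FPKM in int 3 and at 0 in int 2.

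Neither gene of iron export passed. Slc40a1, ferroportin, the only known iron exporter, stood at 75.4 FPKM in int 3-1, 51.0 in int 3-2 and 97.4 in int 3-3, against 47.7, 44.4 and 47.3 FPKM in int 2-1, int 2-2 and int 2-3. The int 3 libraries were far apart, with int 3-3 highest and int 3-2 close to the int 2 libraries. Its log2 change was 0.62 (SE 0.22, adjusted p = 0.108), and without int 3-2 it was 0.87 and passed (adjusted p = 0.00288). Heph, hephaestin, the membrane ferroxidase that works beside ferroportin, was at 13.5, 13.1 and 13.3 FPKM in int 3 and at 13.5, 13.5 and 13.2 FPKM in int 2. These values overlap throughout, and the log2 change was -0.01 (SE 0.05, adjusted p = 0.936). The direction of Heph turned to 0.06 with TPM and to 0.0042 without int 3-2.

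Slc11a1, the phagosomal metal transporter of macrophages, reached FPKM 1 in too few libraries to be tested. It was at 1.30, 1.18 and 0.915 FPKM in int 3 (138 to 191 fragments) and at 0.644, 0.655 and 0.680 FPKM in int 2 (95 to 100 fragments). The groups did not overlap.

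**Figure D2:**
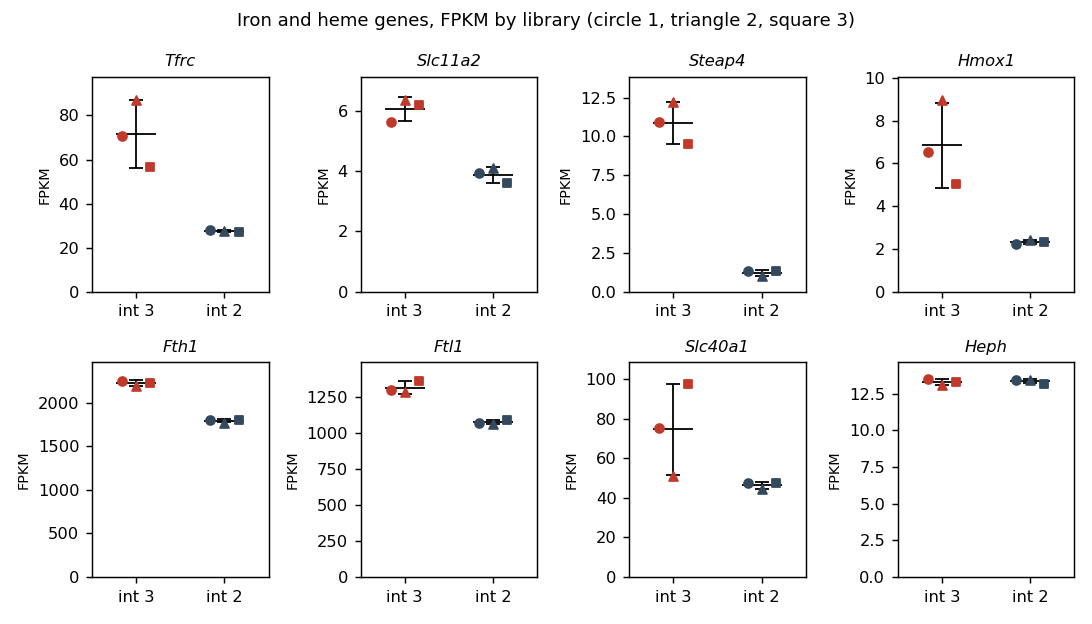
FPKM of 8 iron and heme genes in each library, int 3 left and int 2 right; circles, triangles and squares are libraries 1, 2 and 3, and black marks give the mean ± SD of 3 libraries. Tfrc, Slc11a2, Steap4, Hmox1, Fth1 and Ftl1 are higher in all int 3 libraries, Slc40a1 runs from 51.0 to 97.4 FPKM in int 3, and Heph stays between 13.1 and 13.5 FPKM in all libraries.

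Of the metallothioneins, the next most abundant of these genes after ferritin in int 3, Mt2 rose and Mt1 did not pass. Mt2 stood at 94.2 FPKM in int 3-1, 90.4 in int 3-2 and 110 in int 3-3, against 52.0, 47.3 and 45.0 FPKM in int 2-1, int 2-2 and int 2-3. Its int 3 mean was 2.04-fold that of int 2 (log2 change 1.01, SE 0.09, adjusted p = 0.00177). Mt1 stood at 102, 98.9 and 118 FPKM in int 3 and at 88.9, 87.6 and 84.1 FPKM in int 2. It did not overlap between groups either, but missed the threshold (log2 change 0.29, SE 0.08, adjusted p = 0.0520); it passed with TPM (0.0133), with quantile normalization (0.0467), with separate weights for the groups (0.0408), without int 3-2 (0.0185) and without int 3-3 (0.0181).

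In FPKM, Mt2 came close to Mt1 in int 3 and was well below it in int 2. That closeness depends on the gene lengths behind the FPKM, recovered as 556 bases for Mt2 and 1258 for Mt1. In fragments, Mt2 had 1710 to 2147 and Mt1 4232 to 5194 in the int 3 libraries. The change of the ratio between groups does not depend on these lengths. The ratio Mt2 over Mt1 was 0.921, 0.914 and 0.935 in int 3-1, int 3-2 and int 3-3, and 0.585, 0.540 and 0.534 in int 2-1, int 2-2 and int 2-3. These values are tight within groups and far apart between them (1.67-fold), given as a description, since the larger rise of Mt2 was already seen. Such a ratio does not depend on the scaling of a library. Mtf1, the zinc sensor, was at 3.43 ± 0.353 FPKM in int 3 and 2.87 ± 0.0777 FPKM in int 2 and did not pass (adjusted p = 0.145).

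Among the zinc importers of the Slc39a family 12 of 14 could be tested. Of these, 3 rose, 1 fell and 8 did not pass, while 8.64% of all tested genes rose and 6.7% fell. Slc39a1, a widely used importer of the plasma membrane, was at 55.9 FPKM in int 3-1, 57.5 in int 3-2 and 55.0 in int 3-3, against 42.5, 43.0 and 41.5 FPKM in int 2-1, int 2-2 and int 2-3. It was the steadiest rise of the family, with int 3 libraries 2.26% apart as a coefficient of variation (log2 change 0.40, SE 0.04, adjusted p = 0.00331). Slc39a11, a divergent family member, was at 23.9, 25.4 and 23.3 FPKM in int 3 and at 20.3, 19.8 and 18.6 FPKM in int 2. Its log2 change was 0.29 (SE 0.06, adjusted p = 0.0215), and it did not pass without int 3-1, int 2-1, int 2-2 or int 2-3 (adjusted p = 0.0913, 0.0762, 0.0945 and 0.105).

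The gut importers Slc39a4 and Slc39a5 went opposite ways. Slc39a4, which takes up dietary zinc at the apical face of enterocytes and is mutated in the human zinc deficiency acrodermatitis enteropathica, stood at 39.9 FPKM in int 3-1, 33.1 in int 3-2 and 46.8 in int 3-3, against 26.8, 27.4 and 27.4 FPKM in int 2-1, int 2-2 and int 2-3. Slc39a5, which sits on the basolateral face, stood at 20.03, 19.9 and 22.8 FPKM in int 3 and at 28.4, 28.9 and 29.1 FPKM in int 2. Neither gene overlapped between groups. Slc39a4 rose by 0.52 on the log2 scale (SE 0.12, adjusted p = 0.0339) and Slc39a5 fell by 0.45 (SE 0.06, adjusted p = 0.00775). Slc39a4 did not pass without int 3-1, int 2-1, int 2-2 or int 2-3 (adjusted p = 0.125, 0.131, 0.123 and 0.123), without a filter (0.0677) or with median-of-ratios or quantile scaling (0.0791 and 0.0535), and Slc39a5 did not without int 2-2 or int 2-3 (0.0512 and 0.0515). Their ratio within a library, Slc39a4 over Slc39a5, was 1.99, 1.67 and 2.05 in int 3-1, int 3-2 and int 3-3 and 0.944, 0.948 and 0.941 in int 2-1, int 2-2 and int 2-3, given as a description, since genes that part in opposite directions fix its direction. Of 10 epithelial markers 1 rose and 0 fell, while 8.64% of all tested genes rose and 6.7% fell. These markers summed to 5301 FPKM in int 3-1, 4647 in int 3-2 and 5934 in int 3-3 and to 5138 to 5173 FPKM in int 2. Among the int 3 libraries, int 3-3 was highest in this sum as in Slc39a4, Slc39a5 and Slc40a1. Krt8, at 1659, 1371 and 1912 FPKM in int 3, and Krt19, at 1502, 1279 and 1724 FPKM, made up much of the spread of the sum. Epcam, Cdh1, Cldn7, Cldn3 and Elf3 were also highest in int 3-3, while Krt18, Krt20 and Vil1 were highest in int 3-2. The part of epithelial content in these values was not tested.

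The remaining tested importers did not pass. The most abundant was Slc39a7, which releases zinc from the endoplasmic reticulum, at 63.1 ± 8.33 FPKM in int 3 and 55.3 ± 0.672 FPKM in int 2 (SD, n = 3 each). Slc39a14, which carries zinc, iron and manganese, was at 3.28, 4.12 and 2.79 FPKM in int 3 and at 2.70, 2.59 and 2.57 FPKM in int 2, without overlap. For Slc39a6, Slc39a7, Slc39a8, Slc39a10 and Slc39a13 int 3-1 and int 3-2 lay above every int 2 library and int 3-3 did not. Slc39a10, a plasma membrane importer, was at 1.77, 2.43 and 1.02 FPKM in int 3 and at 1.01, 1.18 and 0.979 FPKM in int 2, and its close relative Slc39a6 at 4.76, 5.20 and 2.87 FPKM in int 3 and at 3.08, 2.98 and 3.38 FPKM in int 2. Slc39a8, which also carries manganese, was at 5.13, 6.08 and 3.80 FPKM in int 3 and at 4.12, 4.07 and 4.59 FPKM in int 2. Slc39a13, an importer of intracellular vesicles, was at 5.19, 6.03 and 3.90 FPKM in int 3 and at 4.55, 4.79 and 4.26 FPKM in int 2. When int 3-3 was left out, Slc39a6, Slc39a7, Slc39a8, Slc39a10 and Slc39a14 passed (adjusted p = 0.00431, 0.0153, 0.0307, 0.0111 and 0.0237). That setting raised the share of all tested genes that passed from 15.3% to 39.2%. Slc39a9 of the Golgi, at 18.1 ± 0.851 FPKM in int 3 and 19.7 ± 0.181 FPKM in int 2, and Slc39a3 of the plasma membrane, at 7.28 ± 0.228 and 7.72 ± 0.385 FPKM in int 3 and int 2, had log2 changes of -0.11 and -0.07. Slc39a2 (12 to 27 fragments) and Slc39a12 (0 to 4 fragments) were below the filter.

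Summed over the family, the importers reached 249 ± 7.49 FPKM in int 3 and 216 ± 1.24 FPKM in int 2 (exact permutation p = 0.1), and the exporters of the Slc30a family 70.2 ± 7.13 FPKM in int 3 and 68.6 ± 0.856 FPKM in int 2 (exact permutation p = 0.7). The importer sums do not overlap between groups and the exporter sums do. Both sums are given as a description, since the values of their genes, among them the rises of Slc39a1, Slc39a4 and Slc39a11, were already seen. The smallest p of this test here is 0.1.

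Of the 10 Slc30a genes 7 could be tested, and 1 rose, 1 fell and 5 did not pass. Over all tested genes 8.64% rose and 6.7% fell. Slc30a10, named as a zinc transporter but known as an exporter of manganese, stood at 0.382 FPKM in int 3-1, 0.176 in int 3-2 and 0.606 in int 3-3, against 3.35, 2.98 and 3.37 FPKM in int 2-1, int 2-2 and int 2-3. Its lowest int 2 value was several times its highest int 3 value. The int 2 mean was 8.33-fold that of int 3 (log2 change -1.62, SE 0.13, adjusted p = 0.00103), on 35 to 124 fragments in int 3 and 599 to 672 in int 2. The pseudocount shrank this change: with pseudocounts of 0.1 and 0.01 the log2 change was -2.87 and -3.19.

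Slc30a7, which fills the secretory pathway with zinc for enzymes such as alkaline phosphatase, was at 4.24, 5.20 and 3.93 FPKM in int 3 and at 2.95, 3.11 and 3.24 FPKM in int 2. It rose by 0.41 on the log2 scale (SE 0.10, adjusted p = 0.0411), and did not pass without int 3-1, int 2-1, int 2-2 or int 2-3 (adjusted p = 0.120, 0.158, 0.144 and 0.124) or without a filter (0.0852). Slc30a5 and Slc30a6, which form a complex with the same task, were at 17.6 ± 2.75 and 8.58 ± 0.532 FPKM in int 3 and at 16.6 ± 0.325 and 9.94 ± 0.777 FPKM in int 2, and neither passed. Slc30a1, the exporter of the plasma membrane and a target of MTF-1, was at 7.05, 7.89 and 7.04 FPKM in int 3 and at 6.09, 6.22 and 6.42 FPKM in int 2. It missed the threshold (log2 change 0.20, SE 0.06, adjusted p = 0.0873) but passed without int 3-3 (0.0411), as did the vesicular Slc30a4 (0.0236), which was at 12.6, 14.1 and 10.5 FPKM in int 3 and at 11.3, 10.8 and 10.9 FPKM in int 2. Without int 3-3, 39.2% of all tested genes passed, against 15.3% with all libraries. Slc30a9, a mitochondrial transporter, was at 19.5 ± 1.27 FPKM in int 3 and 18.4 ± 0.552 FPKM in int 2. The synaptic and secretory forms were nearly absent from the table: Slc30a2 had 1 to 10 fragments per library, Slc30a3 had 1 fragment in int 3-2 and 0 elsewhere, and Slc30a8 had 0 in all libraries, which allows up to 3 fragments in each (counting error only).

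**Figure D3:**
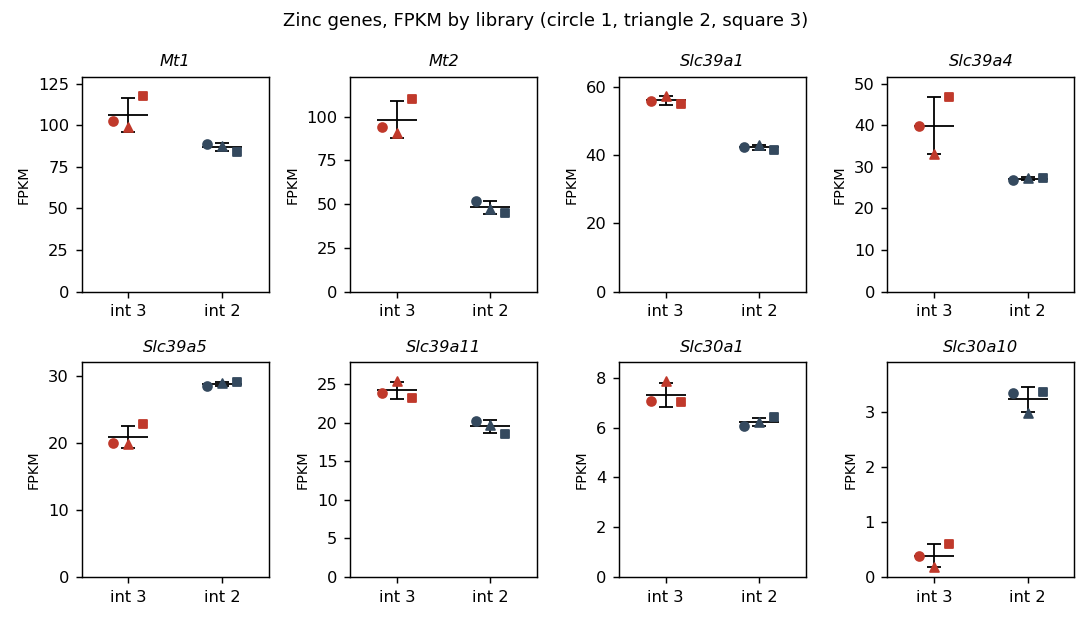
FPKM of 8 zinc genes in each library, int 3 left and int 2 right; circles, triangles and squares are libraries 1, 2 and 3, and black marks give the mean ± SD of 3 libraries. Mt2, Slc39a1, Slc39a4 and Slc39a11 are higher in all int 3 libraries, Slc39a5 and Slc30a10 are lower, and Mt1 and Slc30a1 are higher in all int 3 libraries without passing the test.

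**Figure D4:**
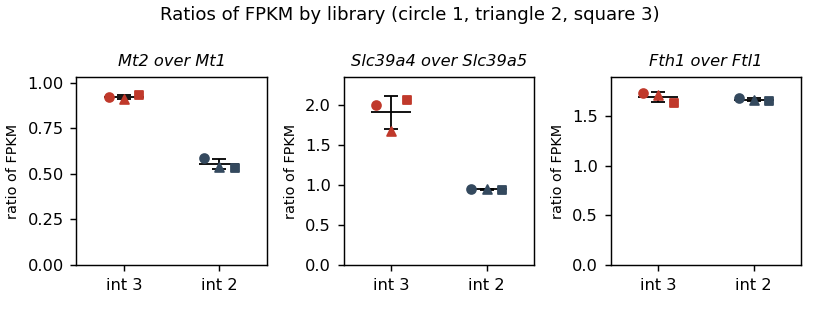
Ratios of FPKM within each library, int 3 left and int 2 right; symbols are libraries 1 to 3 and black marks the mean ± SD of 3 libraries. Mt2 over Mt1 lies at 0.914 to 0.935 in int 3 and 0.534 to 0.585 in int 2, and Slc39a4 over Slc39a5 at 1.67 to 2.05 and 0.941 to 0.948, while Fth1 over Ftl1 overlaps.

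Within int 3 most of these genes, like most of all tested genes, were ordered along the same line of libraries. Int 3-1 lay between the other two for 24 of the 29 tested genes (82.8%), and for 73.5% of all tested genes. Int 3-2 was the highest int 3 library for 19 of the 29 (65.5%), and for 56.9% of all tested genes. Tfrc, Hmox1, Slc39a6 and Slc39a10 were higher in int 3-2 than in int 3-3 by 0.61, 0.72, 0.68 and 0.76 on the log2 scale. Slc40a1, Slc39a4, Slc30a10, Mt2 and Mt1 ran the opposite way, with differences of -0.92, -0.49, -0.45, -0.28 and -0.25. Fth1 and Heph hardly varied along it, with differences of -0.02 each. The pseudocount shrank the difference of Slc30a10, which had 35 fragments in int 3-2 and 124 in int 3-3. Hoxb13 was lowest in int 3-2 and highest in int 3-3, as given above, and the part of position along the gut in these values was not tested.

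**Figure D5:**
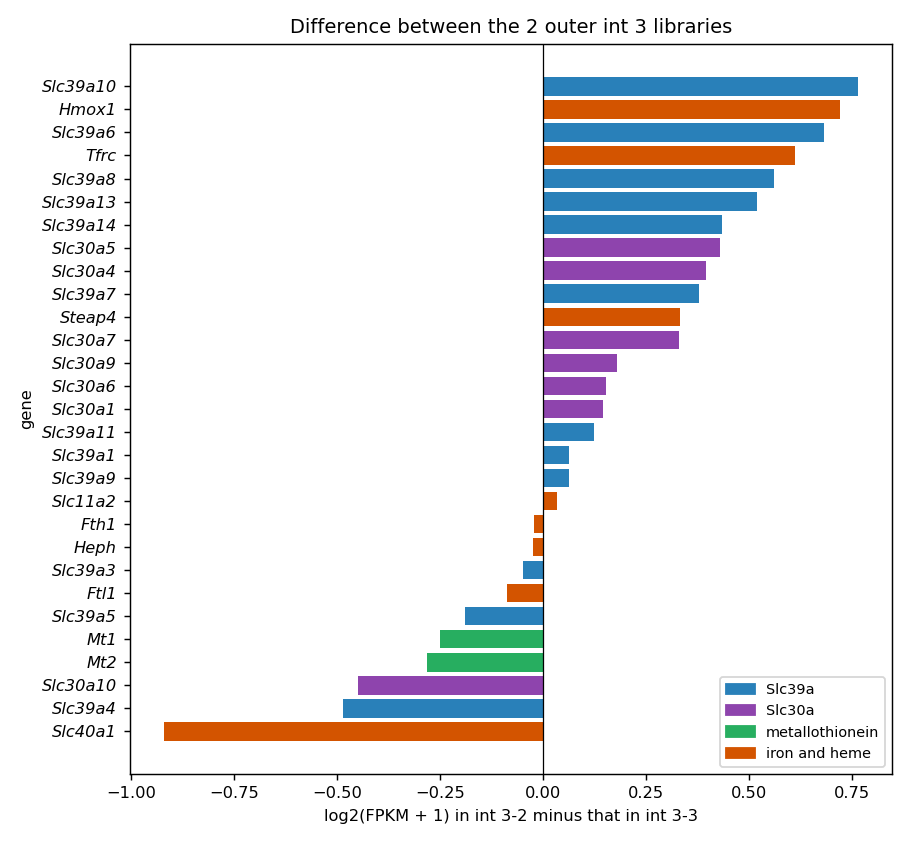
Difference in log2(FPKM + 1) between int 3-2 and int 3-3 for each of the 29 tested genes, coloured by family. Bars to the right are higher in int 3-2 (Slc39a10 at 0.76) and bars to the left higher in int 3-3 (Slc40a1 at -0.92). The pseudocount shortens the bars of weakly expressed genes, such as Slc30a10 (0.176 FPKM in int 3-2 and 0.606 in int 3-3, drawn at -0.45).

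Most other iron genes did not pass, as was so over all tested genes, of which 15.3% changed. Of 12 tested genes of iron uptake, export and storage outside the 35, 1 rose and 1 fell and 10 did not pass. Their median log2 change was 0.02, against 0.03 over all tested genes. The rise was that of Lcn2, lipocalin 2, which binds bacterial iron carriers (12.2 ± 7.24 FPKM in int 3 and 2.31 ± 0.436 FPKM in int 2; adjusted p = 0.0369), and the fall that of Mcoln1, an endolysosomal channel that passes iron and zinc (9.21 ± 0.536 and 12.3 ± 0.292 FPKM in int 3 and int 2; adjusted p = 0.0103). The ferroxidase Cp was at 2.79 ± 1.07 FPKM in int 3 and 1.23 ± 0.141 FPKM in int 2 (adjusted p = 0.0625), and Ncoa4, the receptor for ferritin breakdown, at 9.27 ± 0.264 and 9.46 ± 0.538 FPKM in int 3 and int 2 (adjusted p = 0.806). Cybrd1, the duodenal iron reductase, was below the filter at 0.848 ± 0.318 FPKM in int 3 and 0.706 ± 0.117 FPKM in int 2. Of 11 tested genes of iron regulation 0 passed in limma's test, and the hormone gene Hamp was at 0.0948 ± 0.0393 FPKM in int 3 and 0.287 ± 0.260 FPKM in int 2.

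Among 7 other tested zinc genes 2 rose, 1 fell (Mcoln1) and 4 did not pass, while 8.64% of all tested genes rose and 6.7% fell. S100a8 and S100a9 form calprotectin, which withholds zinc and manganese from microbes. S100a8 was at 5.76 FPKM in int 3-1, 10.5 in int 3-2 and 3.86 in int 3-3, against 0.0747 ± 0.129 FPKM in int 2, and S100a9 at 6.88, 12.7 and 2.23 FPKM in int 3, against 0.0371 ± 0.0321 FPKM in int 2 (adjusted p = 0.00331 and 0.0152). Both passed the filter only through int 3. They are also neutrophil markers. Of 10 listed neutrophil markers 3 were tested, of which these 2 rose and Ly6g did not pass (adjusted p = 0.0697). The list, led by Ly6g, summed to 77.2 to 162 FPKM in int 3 and 39.7 to 40.3 FPKM in int 2. The part of neutrophils in these values was not tested. Heme genes were mixed: of 19 tested, 4 rose (among them Alas1, Alad and the hemoglobin-binding Hp), 1 fell (Urod) and 14 did not pass. Hp, haptoglobin, which passed the filter only through int 3, was at 17.7, 35.1 and 1.68 FPKM in int 3 and at 0.0361 ± 0.0124 FPKM in int 2 (adjusted p = 0.0458). Alas1, the first and limiting step of heme synthesis, was at 33.8 FPKM in int 3-1, 41.0 in int 3-2 and 23.9 in int 3-3, against 18.4 ± 0.345 FPKM in int 2 (adjusted p = 0.0363), while Urod, a later step, was at 24.9 ± 1.22 FPKM in int 3 and 34.1 ± 1.46 FPKM in int 2 (adjusted p = 0.00625).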

How the data were processed

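RNA of 6 large intestine libraries was measured by sequencing, from TRIzol total RNA with the VAHTS Universal V10 library kit (per the labels' protocols). Deposited values were FPKM, 1 column per library, the unit being named in the title of the table and borne out by its whole-fragment steps. The submitters' processing notes name GRCm39 as build; aligner, counter, annotation and strand handling are not given in the sources used here, so genome positions of sequences are those of the GRCm38 reference tables.

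Columns were tied to libraries by title. Whole fragments were recovered for all 12525 tested genes by requiring whole gene lengths and whole fragments in every library (tolerance 0.03 fragments) and served for depth and 1 alternative. The difference int 3 minus int 2 was fitted over all tested genes with limma 3.58.1 in R 4.3.3 (log2(FPKM + 1), eBayes with trend, two-sided, Benjamini-Hochberg, threshold 0.05); exact permutation tests served for ratios and sums. Recovery and fit were checked on simulated data; with the unequal spreads of int 3 and int 2 the fit made more false calls there than the threshold allows, so calls near it are less firm than their adjusted p. Tables and figures were made in Python 3.11.15 (matplotlib 3.10.9, scipy 1.17.1, pandas 2.3.3, numpy 2.4.6). Every gene of the name rule is named. From other pathway lists, genes past the threshold (at most 5 a list) and 6 genes whatever their values are named. Some cell type markers are named after their values were seen. Members and lists were chosen with earlier results of these data known. Alternatives were other pseudocounts, filters and scalings, group weights, voom, the replicate number as a block and leaving out each library.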

Additional observations from a re-analysis of the deposited data

How the results depend on the processing

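Steap4, Tfrc, Hmox1, Mt2, Slc11a2, Slc39a1 and Slc30a10 kept their call in every alternative that could test them. Over the alternatives that leave out no library, single genes kept direction and side of the threshold 262 times, lost the call 13 times, gained it 4 times and changed direction 2 times. Among the 35 genes, 11 rises became 7 without a filter and 6 with the replicate number as a block, and ranged from 6 to 19 with 1 library left out; 2 falls became 1 at a mean FPKM of 5 or more, where Slc30a10 is not tested, and ranged from 1 to 2 with 1 library left out. Over all genes, 1082 rises became 516 with the block and ranged from 372 to 3124 with 1 library left out; 839 falls became 496 at a mean FPKM of 5 or more and 373 with the block, and ranged from 241 to 1789. Only genes that did not pass changed direction: Heph (0.061 with TPM; -0.0165 to 0.00421 with 1 library left out, positive without int 3-2), Slc30a5 (-0.0028 with quantile normalization; -0.0321 to 0.183 with 1 left out, negative without int 3-2) and Slc39a13 (-0.00446 to 0.256 with 1 left out, negative without int 3-2). With the block, Fth1, Ftl1, Slc30a7, Slc39a11 and Slc39a4 did not pass (adjusted p = 0.12, 0.114, 0.0938, 0.0652 and 0.066). The block rests on a shared number only: deviations of same-numbered libraries correlated at -0.0147, 0.00407 and -0.0215 for numbers 1 to 3. With separate weights for the groups 15 of the 29 genes and 14.9% of all genes passed, Mt1 and Slc40a1 (0.0429) among them. Limma assumes 1 spread, while the median coefficient of variation of the 29 genes was 12.5% in int 3 and 3.01% in int 2. At this depth Slc30a2, Slc30a3, Slc30a8 and Slc39a12, with 10 fragments or fewer in each library, could not be compared.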

Other observations

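Genes driven by Nrf2, the oxidant-sensing factor that also acts on the ferritin genes and Hmox1, were followed in 13 tested members. Of these 5 rose and 8 missed the threshold, while 8.64% of all tested genes rose. The median log2 change of the 13 was 0.26, against 0.03 over all tested genes. Pgd, an enzyme that makes NADPH, was at 134 ± 5.37 FPKM in int 3 and 80.8 ± 1.27 FPKM in int 2 (log2 change 0.72, adjusted p = 0.000761). Srxn1, which repairs oxidized peroxiredoxins, was at 26.9 ± 1.64 FPKM in int 3 and 18.4 ± 0.845 FPKM in int 2 (adjusted p = 0.00466), and Txnrd1, thioredoxin reductase, at 63.5 ± 6.53 and 47.1 ± 1.22 FPKM in int 3 and int 2 (adjusted p = 0.0196). Gsr and Osgin1 also rose (log2 change 0.26 and 0.27).

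Iron-sulfur cluster genes were mostly steady: of 18 tested 17 did not pass and 1 fell, with a median log2 change of -0.07. Over all tested genes 15.3% changed. The fall was that of Cisd1, an iron-sulfur protein of the outer mitochondrial membrane, at 68.8 ± 2.83 FPKM in int 3 and 78.9 ± 0.801 FPKM in int 2 (adjusted p = 0.0442).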
